A study of Mus musculus with 4 samples.

Results

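Amino acid transporters were examined in 4 mouse liver sections, as the 42 genes of the Slc1, Slc3, Slc6, Slc7, Slc36, Slc38 and Slc43 families with at least 20 UMIs (unique molecular identifiers, the counted molecules) over the sections. The name pattern matched 63 of the 19465 genes measured, with Slc1a2 set aside because it is a landmark of the pericentral zone. The remaining 21 had under 20 UMIs, and 3 of them (Slc7a14, Slc6a5 and Slc6a18) had none. Slc6a4 with 21 UMIs and Slc7a9 with 22 lay just inside this limit, and Slc6a20a and Slc38a5 with 18 each lay just outside it. The members were 5 of 6 Slc1 genes, both Slc3 genes, 8 of 21 Slc6 genes, 12 of 16 Slc7 genes, 3 of 4 Slc36 genes, 9 of 11 Slc38 genes and all 3 Slc43 genes. Slc7a6os, which the pattern also takes, is a neighbour of Slc7a6 on the opposite strand and not a transporter.

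The study asked how hexokinase 2 in hepatic stellate cells bears on liver fibrosis, and measured RNA in spots laid over tissue sections (Visium). Each section came from 1 mouse, so p-values measure the spread between these few sections. The Hk2-deleted section (n = 1) was PDGFRBcreERT2/Hk2fl/fl with CCl4, and the 2 fibrotic sections were HK2fl/fl with CCl4. The healthy section (n = 1) was HK2fl/fl with olive oil. All mice, labelled male and aged 5 months, received tamoxifen at 75 mg/kg on 5 days, followed by 2 weeks of waiting. CCl4, a hepatocyte poison, was injected at 1 µL/g, 2 times a week for 6 weeks by the design text, while the protocol gives 4 or 6 weeks. The Cre is driven by the Pdgfrb promoter, which is active in stellate cells and in other mural cells, so the deletion does not reach hepatocytes by design.

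The Hk2-deleted section had 3865 spots and 65179106 UMIs, the fibrotic sections had 4134 and 2577 spots with 67479047 and 40585039 UMIs, and the healthy section had 3064 spots with 54031683 UMIs. Hk2 itself was at 3.21 normalised CPM (CPM, the UMI count scaled to a common library size) in the Hk2-deleted section, 4.34 and 4.02 in fibrotic sections 1 and 2, and 2.22 in the healthy section. Fibrotic section 1 goes against its male label. The Y-linked gene Eif2s3y was at 58.0 normalised CPM in the Hk2-deleted section, 0.515 in fibrotic section 1, 63.3 in fibrotic section 2 and 83.9 in the healthy section. Results that rest on fibrotic section 1 are therefore also given without it, as values with no test where no residual degree of freedom was left. Spots holding or next to a mesothelial UMI (Msln or Upk3b) are called surface spots, or spots near the surface. The edge of the tissue itself was not used. They made up 31.0% of the Hk2-deleted section, 33.3% and 2.29% of the fibrotic sections and 12.8% of the healthy section. The sections shared 2041 to 3320 spot barcodes per pair, which are positions of the array.

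Amino acid transporters move amino acids and related molecules across cell membranes, mostly coupled to sodium, to protons or to the exchange of another amino acid. In the liver, periportal hepatocytes take up and break down amino acids and make urea and glucose, while pericentral hepatocytes around the central vein turn ammonia into glutamine. CCl4 is activated by Cyp2e1 and so kills pericentral hepatocytes first, and scar forms around the central veins. Some transporters work alone, whereas the Slc7 light chains reach the surface with a partner, Slc3a2 or Slc3a1. A spot is a small region with several cells, so fewer cells of a type and less RNA per cell cannot be told apart. Levels were not compared between genes, since the probe set, and so the capture of each gene, is not known here.

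Between fibrotic and healthy liver, 7 of the 41 members tested rose and 1 fell (edgeR quasi-likelihood test, Benjamini-Hochberg adjusted p under 0.05 over all genes). Among all 14125 genes tested, 13.7% were called, 9.64% higher and 4.01% lower. The genes that rose were the neutral amino acid exchangers Slc1a4 and Slc1a5, the creatine carrier Slc6a8, the proline carrier Slc6a7, the large neutral amino acid carrier Slc43a2 and the light chains Slc7a6 and Slc7a7. Slc38a2, the sodium-coupled carrier of alanine, serine and glutamine, fell. The median change over the members was 0.21 on the log2 scale, beside 0.00 over all genes.

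Slc38a2 (chr15:96687392-96699728, GRCm38.p6, as for all positions) had 73.0 normalised CPM in the Hk2-deleted section, 62.5 and 97.7 in fibrotic sections 1 and 2, and 222 in the healthy section. The healthy section stood above every CCl4 section, and the fibrotic level fell by 1.47 ± 0.26 on the log2 scale (SE; adjusted p = 6.3e-04, edgeR). Slc38a3, a glutamine and histidine carrier that works in either direction in hepatocytes, had 1715 normalised CPM in the Hk2-deleted section, 1354 and 1663 in fibrotic sections 1 and 2, and 2121 in the healthy section. Slc38a4, which carries neutral and cationic amino acids and is imprinted, had 766 in the Hk2-deleted section, 584 and 914 in fibrotic sections 1 and 2, and 1013 in the healthy section. For both, every CCl4 section lay below the healthy section, yet the log2 differences of -0.49 ± 0.47 and -0.44 ± 0.40 did not pass the test (adjusted p = 0.53 and 0.51, edgeR). The cationic amino acid carrier Slc7a2 followed the same order, with 221 in the Hk2-deleted section, 167 and 259 in fibrotic sections 1 and 2, and 296 in the healthy section (log2 difference -0.47 ± 0.30, adjusted p = 0.33, edgeR). In Slc38a3, Slc38a4 and Slc7a2 that order depends on TMM, the scaling between libraries. Its factor was 0.833 for the healthy section and 0.981 to 1.12 for the CCl4 sections. Without TMM, and outside surface spots, Slc38a3 had 1911 CPM in the Hk2-deleted section against 1774 in the healthy section. On that basis Slc38a4 had 898 CPM in fibrotic section 2 against 848 in the healthy section, and Slc7a2 had 254 against 248.

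Slc1a5 (chr7:16781334-16798274), a sodium-dependent exchanger that brings in glutamine, had 17.6 normalised CPM in the Hk2-deleted section, 21.7 and 16.1 in fibrotic sections 1 and 2, and 7.31 in the healthy section. Slc1a4 (chr11:20302180-20332713), which exchanges alanine, serine and cysteine, had 8.90 in the Hk2-deleted section, 11.1 and 9.04 in fibrotic sections 1 and 2, and 3.53 in the healthy section. Both were higher in each CCl4 section than in the healthy one. In fibrotic over healthy liver, Slc1a5 rose by 1.37 ± 0.22 on the log2 scale (2.59-fold, edgeR adjusted p = 3.0e-04) and Slc1a4 by 1.51 ± 0.25 (2.85-fold, adjusted p = 4.0e-04). Slc1a3, a glutamate carrier of the same family, had 0.746, 0.726, 0.452 and 0.400 normalised CPM in the Hk2-deleted section, fibrotic sections 1 and 2 and the healthy section, from 18 to 55 UMIs a section. It did not pass the test.

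Slc6a8 (chrX:73673133-73682502) had 11.5 normalised CPM in the Hk2-deleted section, 10.7 and 11.1 in fibrotic sections 1 and 2, and 3.18 in the healthy section. The CCl4 sections lay within a narrow band, and the rise in fibrotic over healthy liver was 1.78 ± 0.24 on the log2 scale (3.43-fold, edgeR adjusted p = 4.8e-05). Slc6a7 (chr18:60995376-61014416), known as a proline carrier of brain synapses, had 3.31 in the Hk2-deleted section, 4.12 and 1.28 in fibrotic sections 1 and 2, and 0.622 in the healthy section. Its fibrotic sections differed from each other more than fibrotic section 2 differed from the healthy section, which held 28 UMIs. The log2 difference of 2.14 ± 0.58 (adjusted p = 0.017, edgeR) became 1.04 without fibrotic section 1 and 2.71 without fibrotic section 2, with no test possible in either. With spots near the surface left out it no longer passed (adjusted p = 0.064, edgeR).

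Slc43a2 had 17.3 normalised CPM in the Hk2-deleted section, 22.7 and 18.7 in fibrotic sections 1 and 2, and 12.9 in the healthy section (log2 difference of fibrotic over healthy 0.69 ± 0.20, adjusted p = 0.025, edgeR). Slc7a7, which exports cationic amino acids together with Slc3a2, had 13.8 in the Hk2-deleted section, 16.6 and 15.5 in fibrotic sections 1 and 2, and 10.2 in the healthy section (0.66 ± 0.20, adjusted p = 0.034, edgeR). Slc7a6, its close relative, had 0.915 in the Hk2-deleted section, 1.45 and 1.31 in fibrotic sections 1 and 2, and 0.333 in the healthy section, the last from 15 UMIs (2.05 ± 0.59, adjusted p = 0.026, edgeR). In all 3 genes the healthy section was below each CCl4 section. DESeq2 called none of these 3, while it also called Slc1a5, Slc6a8, Slc1a4, Slc6a7 and Slc38a2. With fibrotic section 2 and the Hk2-deleted section as the CCl4 group, so without the section that goes against its label, Slc1a5, Slc6a8, Slc1a4 and Slc38a2 were called again and Slc38a7 was added as lower.

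The partner Slc3a2 did not move with these light chains. It had 39.4 normalised CPM in the Hk2-deleted section, 39.7 and 40.2 in fibrotic sections 1 and 2, and 38.7 in the healthy section, a log2 difference of 0.05 ± 0.20 between fibrotic and healthy liver (adjusted p = 0.91, edgeR). The cystine and glutamate exchanger Slc7a11, which also pairs with Slc3a2, had 19 UMIs in the Hk2-deleted section, 25 and 11 in fibrotic sections 1 and 2, and 4 in the healthy section. Its fibrotic over healthy log2 difference of 1.76 ± 0.99 did not pass the test (adjusted p = 0.26, edgeR).

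Of the members called in the comparisons of spots described further on, Slc43a3, Slc6a13, Slc6a12, Slc43a1, Slc7a8, Slc7a5 and Slc38a1 did not pass this test over whole sections. Slc43a3 had 84.8 normalised CPM in the Hk2-deleted section, 92.9 and 85.3 in fibrotic sections 1 and 2, and 88.1 in the healthy section. Slc6a13 had 78.4 in the Hk2-deleted section, 84.0 and 103 in fibrotic sections 1 and 2, and 94.9 in the healthy section. In both genes the healthy value lay between the fibrotic ones. Slc6a12 had 33.2 in the Hk2-deleted section, 31.5 and 36.7 in fibrotic sections 1 and 2, and 43.7 in the healthy section, above all others. Without TMM scaling and outside surface spots, its healthy section had 37.7 CPM and the CCl4 sections 36.2 to 36.9. Slc43a1 had 17.3 in the Hk2-deleted section, 16.6 and 19.5 in fibrotic sections 1 and 2, and 19.4 in the healthy section. The light chains Slc7a8 and Slc7a5 and the glutamine carrier Slc38a1 were each lowest in the healthy section. Slc7a8 had 9.21 in the Hk2-deleted section, 12.5 and 9.45 in fibrotic sections 1 and 2, and 7.46 in the healthy section. Slc7a5 had 9.04 in the Hk2-deleted section, 9.43 and 8.29 in fibrotic sections 1 and 2, and 7.69 in the healthy section. Slc38a1 had 4.15 in the Hk2-deleted section, 4.96 and 3.17 in fibrotic sections 1 and 2, and 2.62 in the healthy section.

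**Figure D1:**
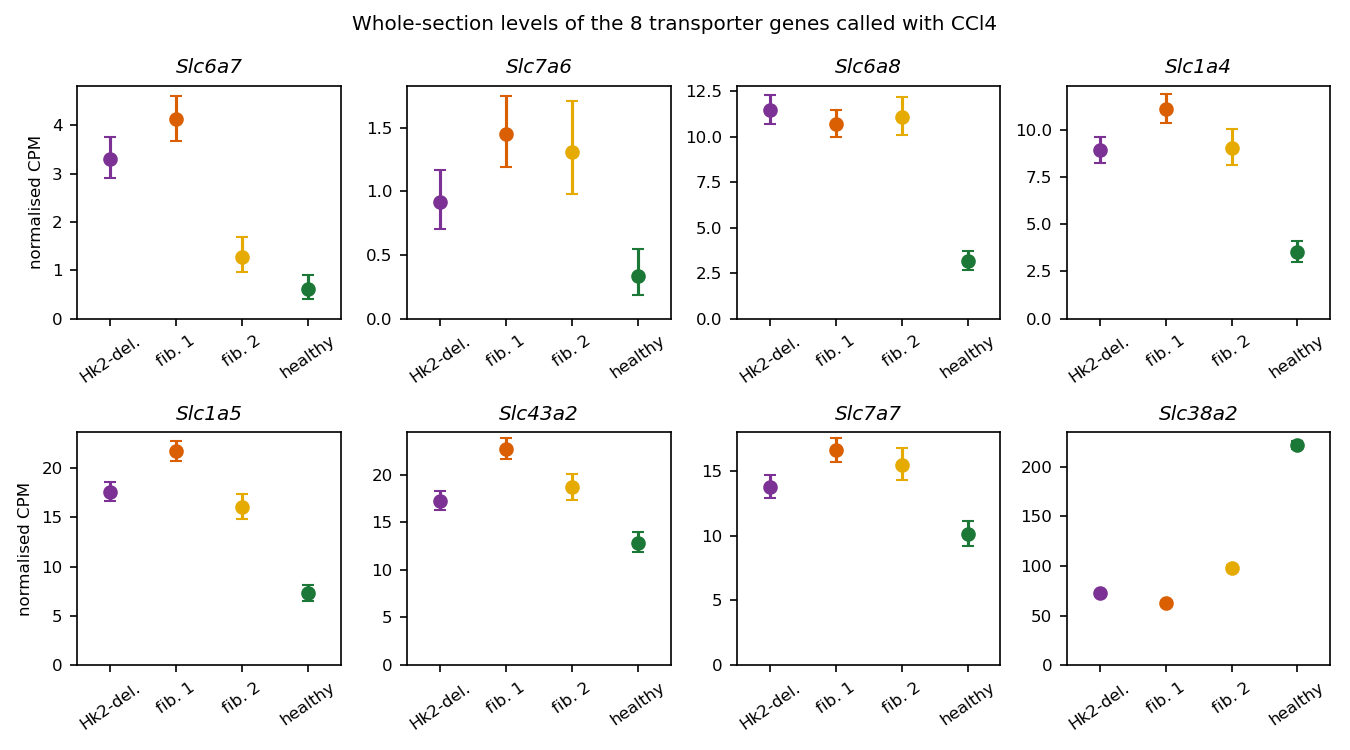
Normalised CPM (y axis, from 0, scale differing by panel) of the 8 members called between fibrotic and healthy liver, in each of the 4 sections (x axis). Points are sections and bars are exact Poisson 95% intervals for counting error only. Slc38a2 lies between 62.5 and 97.7 in the CCl4 sections and at 222 in the healthy section, while Slc6a8 lies between 10.7 and 11.5 in the CCl4 sections and at 3.18 in the healthy section.

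Several transporter genes, Slc7a11 and Slc38a2 among them, are induced by the transcription factor Atf4 when amino acids run short, through a response element with the core TGATGNAA. The promoters of the members were therefore read for this core on both strands, in windows from 250 bases before to 50 bases after the start of each RefSeq transcript (GRCm38.p6). Windows were found for 30 of the 42 members. The core occurred in 5 of their 49 windows (10.2%), and in 1304 of 32851 windows of all genes (3.97%). Of the 5, 2 are overlapping windows of Slc7a7 that share the match next to the start, so that site is counted 2 times. The 4 members with a match were Slc1a4, Slc7a7, Slc7a11 and Slc6a21. Of the other genes that rose in fibrotic liver, Slc43a2 and Slc7a6 had windows without a match. No window was found for Slc1a5, Slc6a8 and Slc6a7, so matches cannot be set against the direction of change. Shown here are the promoters of Slc1a4 and Slc7a7, which rose, of Slc7a11, which has 2 matches, and of Slc38a2, which fell and has no match. Each reads 5′ to 3′ in the direction of the gene, on the minus strand, with matches to the core or to its reverse complement in capitals.
Slc1a4 at chr11:20332664-20332963: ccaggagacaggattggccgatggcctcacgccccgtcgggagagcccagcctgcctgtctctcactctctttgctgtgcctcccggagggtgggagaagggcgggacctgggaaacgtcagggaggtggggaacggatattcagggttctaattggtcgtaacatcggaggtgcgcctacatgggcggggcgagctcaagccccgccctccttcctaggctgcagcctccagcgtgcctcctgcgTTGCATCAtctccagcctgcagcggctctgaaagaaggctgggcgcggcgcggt
Slc7a7 at chr14:54417895-54418194: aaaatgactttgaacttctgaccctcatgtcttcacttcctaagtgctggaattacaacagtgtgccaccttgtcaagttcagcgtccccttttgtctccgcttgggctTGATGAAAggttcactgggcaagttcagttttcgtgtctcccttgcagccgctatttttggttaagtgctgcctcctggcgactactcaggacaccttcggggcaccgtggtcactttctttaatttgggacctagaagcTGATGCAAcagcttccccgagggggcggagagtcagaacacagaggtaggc
Slc7a11 at chr3:50443564-50443863: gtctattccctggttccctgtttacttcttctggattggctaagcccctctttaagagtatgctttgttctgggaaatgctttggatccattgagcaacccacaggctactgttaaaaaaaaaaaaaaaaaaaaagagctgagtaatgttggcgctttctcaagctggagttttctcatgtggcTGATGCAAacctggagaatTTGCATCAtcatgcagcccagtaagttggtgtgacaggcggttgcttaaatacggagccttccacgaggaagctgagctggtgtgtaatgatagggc
Slc38a2 at chr15:96699679-96699978: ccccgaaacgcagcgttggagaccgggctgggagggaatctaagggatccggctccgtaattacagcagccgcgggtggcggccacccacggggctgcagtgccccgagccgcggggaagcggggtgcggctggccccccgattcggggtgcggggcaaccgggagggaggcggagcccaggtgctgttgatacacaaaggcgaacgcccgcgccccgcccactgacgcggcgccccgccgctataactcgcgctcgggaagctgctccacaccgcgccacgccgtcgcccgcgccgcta
The match of Slc1a4 begins 4 bases before the start, spans it and is on the opposite strand. Slc7a7 has matches that begin 141 bases and 1 base before the start, and Slc7a11 has them at 66 and 47 bases. A match describes the letters only, and its absence from the Slc38a2 window says nothing of elements elsewhere.

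Genes of amino acid sensing and response from a list of 22 gave 2 higher and 2 lower calls between fibrotic and healthy liver. That is 9.09% each way, beside 9.64% higher and 4.01% lower among all genes. The stress gene Nupr1 had 11.2 normalised CPM in the Hk2-deleted section, 14.6 and 8.67 in fibrotic sections 1 and 2, and 3.98 in the healthy section. Castor2, a partner of the arginine sensor Castor1 in the mTORC1 pathway, was the other that rose (log2 difference 1.01 ± 0.28, adjusted p = 0.022, edgeR). Chac1, a glutathione-degrading enzyme, had 4.69 in the Hk2-deleted section, 3.31 and 6.28 in fibrotic sections 1 and 2, and 17.4 in the healthy section. Trib3, a pseudokinase that Atf4 induces, had 3.35 in the Hk2-deleted section, 3.79 and 3.01 in fibrotic sections 1 and 2, and 9.38 in the healthy section. Both were thus lower in each CCl4 section, with log2 differences of fibrotic over healthy liver of -1.88 ± 0.28 and -1.46 ± 0.27 (adjusted p = 1.0e-04 and 0.0011, edgeR). Of 15 tested carriers and partners outside the 7 families, the lysosomal histidine and peptide carrier Slc15a3 was called higher (0.79 ± 0.21, adjusted p = 0.014, edgeR) and none lower, a share of 6.67%.

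Cell type markers moved with this comparison. Summed over 6 hepatocyte markers, the level was 112677 normalised CPM in the Hk2-deleted section, 156588 and 161743 in fibrotic sections 1 and 2, and 246468 in the healthy section. The 9 macrophage markers summed to 1794 in the Hk2-deleted section, 2116 and 1746 in fibrotic sections 1 and 2, and 1345 in the healthy section. The 6 neutrophil markers summed to 473 in the Hk2-deleted section, 527 and 1205 in fibrotic sections 1 and 2, and 21.4 in the healthy section. Of these lists, 0 hepatocyte, 5 macrophage and 6 neutrophil genes were called higher in fibrotic liver, none was called lower, and none was at 0 in any section. Also called higher were 5 of 7 lymphocyte and plasma cell, 4 of 5 cholangiocyte, 2 of 6 stellate and 3 of 3 proliferation markers. The cholangiocyte markers summed to 261 in the Hk2-deleted section, 299.8 and 281 in fibrotic sections 1 and 2, and 115 in the healthy section. The proliferation markers summed to 34.3 in the Hk2-deleted section, 40.9 and 28.4 in fibrotic sections 1 and 2, and 6.64 in the healthy section. Their part in the transporter results was not tested.

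Deletion of Hk2 in Pdgfrb-expressing cells gave no call among the 41 members tested, in a comparison where 0.227% of 14125 genes were called (0.142% higher and 0.0850% lower). This comparison shares the fibrotic sections with the one above. Unadjusted p was under 0.05 for 1 member, Slc3a1, and DESeq2 called 0. Slc3a1 (chr17:85028347-85064241), the partner of the cystine and dibasic amino acid carrier Slc7a9, had 84.2 normalised CPM in the Hk2-deleted section, 40.7 and 61.4 in fibrotic sections 1 and 2, and 52.3 in the healthy section. The Hk2-deleted section was the highest of the 4, and the log2 difference of 0.72 ± 0.23 over the fibrotic sections did not pass the test (adjusted p = 0.57, edgeR). Slc7a9 itself had 5, 9, 4 and 4 UMIs in the Hk2-deleted section, fibrotic sections 1 and 2 and the healthy section, and was too low to test. For the members called with CCl4, the log2 differences of the Hk2-deleted over the fibrotic sections were 0.08 ± 0.22 for Slc6a8, -0.11 ± 0.21 for Slc1a5, -0.18 ± 0.23 for Slc1a4 and -0.13 ± 0.27 for Slc38a2. Against fibrotic section 2 alone, with no test, the log2 differences were 0.46 for Slc3a1, 0.05 for Slc6a8, 0.13 for Slc1a5, -0.02 for Slc1a4 and -0.42 for Slc38a2, so the sign of Slc1a5 turned. With errors of this size small differences were not detectable, and the test does not show that the levels were equal.

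Spots were next divided by position in the lobule. Each spot was scored by 9 pericentral landmarks minus 12 periportal landmarks, none of which is a member. Each section was then cut into a pericentral, a middle and a periportal part with equal numbers of spots. Median UMIs per spot were 13800.5 pericentral against 16071.5 periportal in the Hk2-deleted section and 11887 against 19952 in the healthy section. They were 17456.5 against 12402.5 in fibrotic section 1 and 13466 against 13345 in fibrotic section 2. Over all 4 sections, 4 of the 32 members tested were higher in the pericentral part and 7 were lower, beside 5.60% and 5.05% of 12684 genes (10.7% in either direction). The pericentral genes were Slc1a4, Slc1a5, the large neutral amino acid exchanger Slc7a5 and the nucleobase carrier Slc43a3. The periportal genes were Slc3a1, Slc7a2, Slc38a4, Slc38a3, Slc38a2, the branched-chain amino acid carrier Slc43a1 and the GABA and taurine carrier Slc6a13. All 11 had the same sign in each of the 4 sections, which gave the calls, so this is no separate support. In every CCl4 section the middle part lay between the other parts for all 11, while in the healthy section it lay outside them for 5.

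Slc1a4 had 13.4 pericentral against 5.14 periportal normalised CPM in the Hk2-deleted section, 14.6 against 5.89 and 14.2 against 5.24 in fibrotic sections 1 and 2, and 5.63 against 2.41 in the healthy section. Its within-section log2 ratios ran from 1.22 to 1.44, and the fitted log2 difference was 1.35 ± 0.09 (2.55-fold, edgeR adjusted p = 4.8e-04). Slc1a5 had 26.7 against 11.0 in the Hk2-deleted section, 30.3 against 12.6 and 24.7 against 9.30 in fibrotic sections 1 and 2, and 9.60 against 6.47 in the healthy section (1.17 ± 0.13, 2.25-fold, edgeR adjusted p = 0.0026). Slc43a3 had within-section log2 ratios of 0.50 in the Hk2-deleted section, 0.47 and 0.66 in fibrotic sections 1 and 2, and 0.44 in the healthy section. Those of Slc7a5 were 0.41 in the Hk2-deleted section, 0.76 and 0.59 in fibrotic sections 1 and 2, and 0.76 in the healthy section. Both passed the test at smaller sizes than the Slc1 genes, with 0.52 ± 0.06 for Slc43a3 (adjusted p = 0.0038, edgeR) and 0.62 ± 0.10 for Slc7a5 (adjusted p = 0.011, edgeR).

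Slc3a1 was the most unequal of the periportal genes by the fitted difference. It had 54.2 pericentral against 113 periportal normalised CPM in the Hk2-deleted section, 29.8 against 58.1 and 38.9 against 85.1 in fibrotic sections 1 and 2, and 19.6 against 79.5 in the healthy section (-1.26 ± 0.16, adjusted p = 0.0046, edgeR). Slc7a2 had 150 against 293 in the Hk2-deleted section, 128 against 234 and 160 against 367 in fibrotic sections 1 and 2, and 252 against 324 in the healthy section (-0.85 ± 0.13, adjusted p = 0.0082, edgeR). In the healthy section the ratio was steeper than in the others for Slc3a1 and flatter for Slc7a2. Slc38a3 had 1374 against 2025 in the Hk2-deleted section, 1108 against 1727 and 1225 against 2069 in fibrotic sections 1 and 2, and 1842 against 2290 in the healthy section (-0.57 ± 0.10, adjusted p = 0.016, edgeR). Slc38a4 had 573 against 938 in the Hk2-deleted section, 452 against 771 and 658 against 1139 in fibrotic sections 1 and 2, and 951 against 1013 in the healthy section (-0.59 ± 0.13, adjusted p = 0.030, edgeR). Its healthy profile was almost level, and the CCl4 profiles sloped.

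The other periportal genes were Slc43a1, Slc6a13 and Slc38a2. Slc43a1 had log2 ratios of -0.63 in the Hk2-deleted section, -0.74 and -0.68 in fibrotic sections 1 and 2, and -0.22 in the healthy section (fit -0.57 ± 0.10, adjusted p = 0.013, edgeR). Slc6a13 had -0.35 in the Hk2-deleted section, -0.42 and -0.40 in fibrotic sections 1 and 2, and -0.10 in the healthy section (fit -0.32 ± 0.07, adjusted p = 0.031, edgeR). Slc38a2 had -0.32 in the Hk2-deleted section, -0.24 and -0.57 in fibrotic sections 1 and 2, and -0.14 in the healthy section (fit -0.31 ± 0.08, adjusted p = 0.048, edgeR). All the CCl4 ratios of these genes were larger in size than the healthy one, and Slc6a13 and Slc38a2 had the smallest fitted differences of the 11 calls.

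The number of calls depended on the sections used. Without fibrotic section 1, without fibrotic section 2 or without the Hk2-deleted section, the 4 calls left were Slc1a4, Slc1a5, Slc43a3 and Slc3a1, and without the healthy section there were 16. Scaling by library totals alone gave 12 higher and 5 lower calls, with the median of all genes shifted to 0.21 on the log2 scale, and lost Slc38a2 and Slc6a13. Macrophage markers summed to 2041 pericentral against 1557 periportal normalised CPM in the Hk2-deleted section, 2445 against 1704 and 2091 against 1379 in fibrotic sections 1 and 2, and 1022 against 1456 in the healthy section. Hepatocyte markers were lower in the pericentral part of all 4 sections, with 98930 against 123533 in the Hk2-deleted section, 131740 against 191916 and 131850 against 184060 in fibrotic sections 1 and 2, and 193210 against 279824 in the healthy section. Called higher in the pericentral part were 6 of 6 neutrophil, 4 of 6 stellate, 4 of 7 lymphocyte and plasma cell, 2 of 9 macrophage and 2 of 3 mesothelial markers. Called lower were 2 of 6 hepatocyte and 3 of 5 cholangiocyte markers. The neutrophil markers summed to 557 pericentral against 312 periportal in the Hk2-deleted section, 600.2 against 356 and 1494 against 738 in fibrotic sections 1 and 2, and 22.1 against 18.7 in the healthy section, where 1 of them was at 0 in the pericentral part. The cholangiocyte markers summed to 167 to 262 pericentral against 338 to 374 periportal in the CCl4 sections, and to 43.7 against 187 in the healthy section. The part of any of these in the zone differences was not tested.

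**Figure D2:**
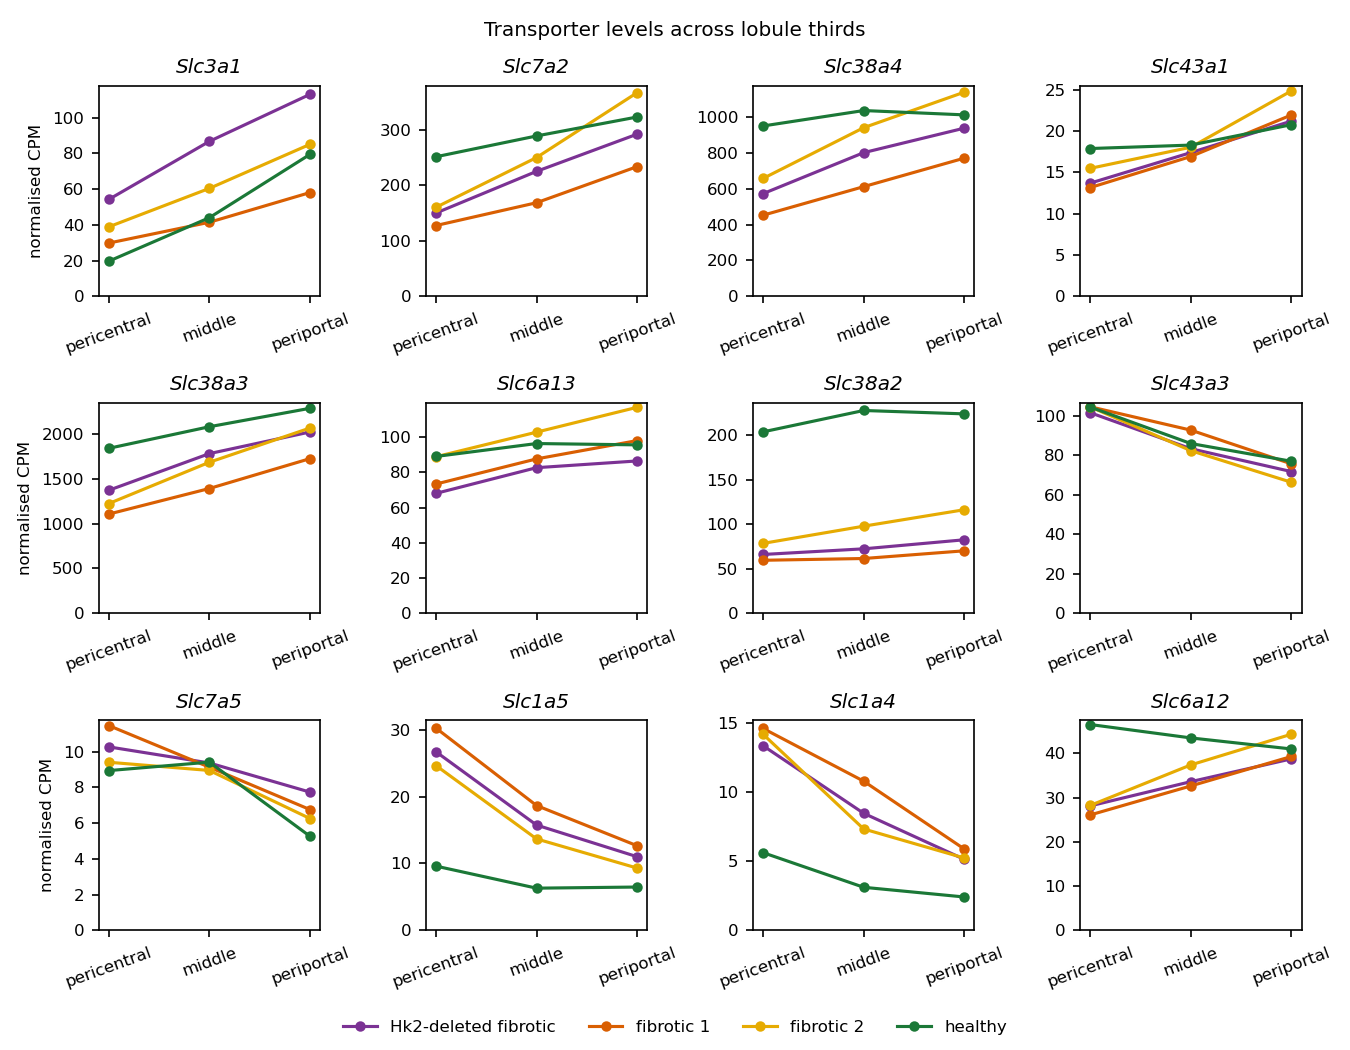
Normalised CPM (y axis, from 0, scale differing by panel) of 12 members across the pericentral, middle and periportal parts (x axis), with a line for each section. Slc1a4 slopes down toward the portal part in every section and Slc1a5 in every CCl4 section, Slc3a1 and Slc7a2 slope up, and Slc6a12 slopes up in the CCl4 sections and down in the healthy section.

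**Figure D3:**
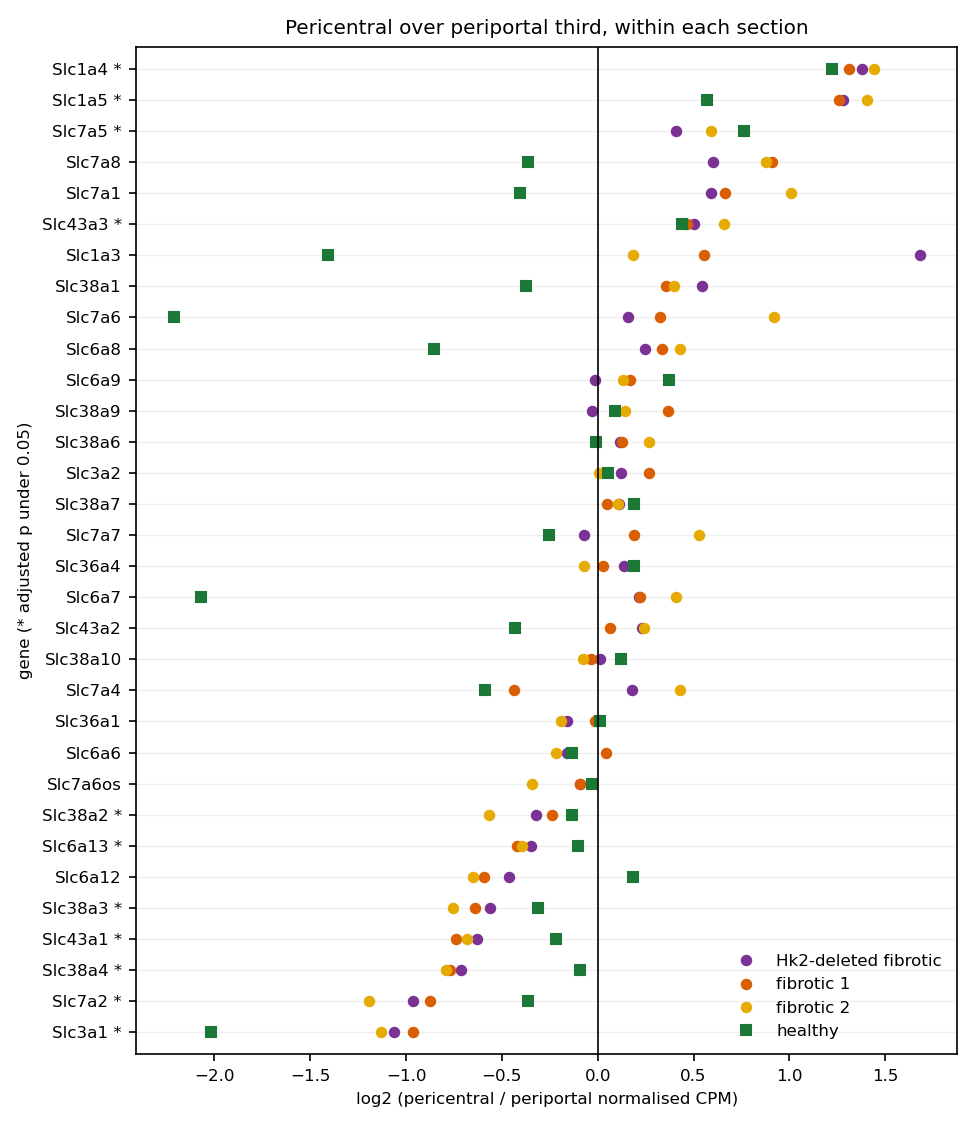
Within-section log2 ratio of pericentral over periportal normalised CPM (x axis) for the 32 members tested (rows), with circles for the CCl4 sections, squares for the healthy section and stars for calls over all sections. The CCl4 circles of Slc6a8 lie between 0.25 and 0.43 and its healthy square at -0.86, while those of Slc3a1 lie between -1.13 and -0.96 and its healthy square at -2.02.

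The zone difference itself differed between the 3 CCl4 sections and the healthy section for 12 of 32 members, with 6 shifted toward the pericentral part and 6 away from it. Among all 12684 genes the shares were 9.31% and 11.2%, or 20.5% in either direction. Shifted toward the pericentral part with CCl4 were Slc3a1, Slc6a8, Slc7a8, Slc1a5, Slc43a2 and Slc6a7. Shifted toward the periportal part were Slc38a4, Slc7a2, Slc6a12, Slc43a1, Slc38a3 and Slc6a13. The test rests on 1 healthy section. Of the 12 periportal landmarks, the same test called 4 as shifted toward the pericentral part and 3 away from it. Of the 9 pericentral landmarks it called 1, Oat, as shifted away. The parts were thus cut by landmarks of which some changed themselves. Whether they are the same zones in CCl4 and healthy sections, and the part of this in the transporter shifts, was not tested.

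Slc3a1 had log2 ratios of -1.06 in the Hk2-deleted section, -0.96 and -1.13 in fibrotic sections 1 and 2, and -2.02 in the healthy section, a difference of 0.97 ± 0.12 (adjusted p = 8.6e-05, edgeR). Its periportal level was thus still the higher with CCl4, by a smaller factor. Slc7a8, a light chain that exchanges neutral amino acids with Slc3a2, had 0.60 in the Hk2-deleted section, 0.91 and 0.88 in fibrotic sections 1 and 2, and -0.36 in the healthy section (1.16 ± 0.23, adjusted p = 0.0030, edgeR). Slc6a8 had 0.25 in the Hk2-deleted section, 0.34 and 0.43 in fibrotic sections 1 and 2, and -0.86 in the healthy section (1.18 ± 0.29, adjusted p = 0.010, edgeR). Both changed sign between the CCl4 sections and the healthy section. Slc43a2 did the same with 0.23 in the Hk2-deleted section, 0.06 and 0.24 in fibrotic sections 1 and 2, and -0.43 in the healthy section (0.60 ± 0.17, adjusted p = 0.021, edgeR). Slc1a5 was pericentral in all 4 sections, with 1.28 in the Hk2-deleted section, 1.26 and 1.41 in fibrotic sections 1 and 2, and 0.57 in the healthy section (0.73 ± 0.19, adjusted p = 0.015, edgeR). The healthy value of Slc6a7 rests on 3 pericentral and 19 periportal UMIs.

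Among the 6 that shifted the other way, Slc38a4 had -0.71 in the Hk2-deleted section, -0.77 and -0.79 in fibrotic sections 1 and 2, and -0.09 in the healthy section (-0.66 ± 0.09, adjusted p = 2.6e-04, edgeR). Slc6a12, which carries betaine and GABA, had -0.46 in the Hk2-deleted section, -0.59 and -0.65 in fibrotic sections 1 and 2, and 0.18 in the healthy section (-0.74 ± 0.11, adjusted p = 4.3e-04, edgeR). It was the only member of the 6 whose sign differed between the CCl4 sections and the healthy section. Slc7a2 had -0.96 in the Hk2-deleted section, -0.88 and -1.20 in fibrotic sections 1 and 2, and -0.36 in the healthy section (-0.64 ± 0.11, adjusted p = 0.0011, edgeR). The differences of the other 3 were -0.47 for Slc43a1, -0.34 for Slc38a3 and -0.28 for Slc6a13. Their calls were less stable, being lost under 4, 2 and 5 of the other settings tried, while those of Slc38a4, Slc6a12 and Slc7a2 were lost under none. Without fibrotic section 1, 11 members were called, 9 of them among these 12. DESeq2 called 5 members, Slc3a1, Slc38a3, Slc38a4, Slc7a2 and Slc6a12. Stellate markers, which bear on where scar lies, summed to 742 pericentral against 367 periportal normalised CPM in the Hk2-deleted section, 785 against 457 and 901 against 403 in fibrotic sections 1 and 2, and 540.1 against 543 in the healthy section. All 6 stellate, 7 of 9 macrophage, 4 of 5 cholangiocyte, 3 of 7 lymphocyte and plasma cell and 1 of 6 neutrophil markers were called as shifted toward the pericentral part, and 2 of 6 hepatocyte markers as shifted away. Their part was not tested.

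Collagen-rich spots were, in each section, the 10% in which the fibrillar collagen genes Col1a1, Col1a2 and Col3a1 made up the largest share of the UMIs of a spot. They were compared with all other spots of the same section over the 3 CCl4 sections. The lowest collagen share of a collagen-rich spot was 0.174% in the Hk2-deleted section, and 0.270% and 0.142% in fibrotic sections 1 and 2. In the healthy section it was 0.0167%, so its collagen-rich spots were chosen at a lower share and are not alike in kind. Of 33 members tested, 10 were higher in collagen-rich spots and 8 lower, beside 21.9% and 22.1% of 13170 genes (44.0% in either direction). Higher were Slc6a7, Slc1a5, Slc1a3, the glutamine carrier Slc38a1, Slc6a8, Slc43a3, Slc7a8, Slc1a4, Slc43a2 and the heavy chain Slc3a2. Lower were Slc3a1, Slc38a4, Slc7a2, Slc6a12, Slc38a3, Slc6a13, Slc43a1 and Slc38a2. All 18 had the same sign in each of the 3 CCl4 sections, which is no separate support, since these sections gave the calls. Without fibrotic section 1, 15 of them were called again.

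Slc6a7 had 11.1 normalised CPM in collagen-rich and 2.62 in other spots of the Hk2-deleted section, 10.1 and 3.64 in fibrotic section 1, and 4.02 and 1.07 in fibrotic section 2. Collagen-rich spots of the healthy section had 1.23, from 5 UMIs, and its other spots 0.594. The log2 difference of 1.79 ± 0.19 (3.47-fold, edgeR adjusted p = 7.0e-06) was the largest of the members, and without spots near the surface it was 2.39. Slc1a5 had 41.7 and 16.3 in the Hk2-deleted section, 34.6 and 22.1 in fibrotic section 1, 28.9 and 16.0 in fibrotic section 2, and 10.1 and 7.44 in the healthy section (0.97 ± 0.12, adjusted p = 1.6e-05, edgeR). Slc6a8 had 18.8 and 11.8 in the Hk2-deleted section, 17.0 and 10.9 in fibrotic section 1, 15.3 and 11.6 in fibrotic section 2, and 5.43 and 3.13 in the healthy section (0.61 ± 0.10, adjusted p = 2.6e-04, edgeR). For these genes the collagen-rich spots were the higher also in the healthy section, although there even the collagen-rich spots were chosen at a low collagen share.

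Slc38a1 had 8.13 and 4.07 normalised CPM in collagen-rich and other spots of the Hk2-deleted section, 6.82 and 5.20 in fibrotic section 1, 4.78 and 3.26 in fibrotic section 2, and 3.70 and 2.66 in the healthy section (0.67 ± 0.18, adjusted p = 0.0089, edgeR). Slc43a3 had 126 and 88.6 in the Hk2-deleted section, 128 and 97.3 in fibrotic section 1, 142 and 86.3 in fibrotic section 2, and 119 and 90.0 in the healthy section (0.55 ± 0.07, adjusted p = 2.3e-05, edgeR). Collagen-rich spots were thus above the others in all 4 sections for both genes. The remaining higher calls were 0.89 ± 0.34 for Slc1a3 (adjusted p = 0.046, edgeR), which rests on 4 to 12 UMIs in the collagen-rich spots of a CCl4 section, 0.42 ± 0.12 for Slc7a8, 0.37 ± 0.12 for Slc1a4, 0.27 ± 0.08 for Slc43a2 and 0.25 ± 0.06 for Slc3a2. DESeq2 called none of these last 5. Over the settings tried, the call was lost with the sign kept 8 times for Slc1a3, 7 for Slc43a2, 5 for Slc7a8, 4 for Slc1a4 and 1 for Slc3a2. The sign of Slc1a4 changed under 2 settings and that of Slc3a2 under 1. In the healthy section, 8 of the 10 higher genes had the same sign, while Slc1a3 and Slc7a8 had log2 ratios of -0.83 and -0.10.

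Slc3a1 had 48.1 normalised CPM in collagen-rich and 98.5 in other spots of the Hk2-deleted section, 27.2 and 47.0 in fibrotic section 1, 31.4 and 70.7 in fibrotic section 2, and 55.0 in both kinds of spot of the healthy section (-0.97 ± 0.07, adjusted p = 3.6e-07, edgeR). Slc38a4 had 478 and 890 in the Hk2-deleted section, 399 and 674 in fibrotic section 1, 558 and 1042 in fibrotic section 2, and 912 and 1083 in the healthy section (-0.84 ± 0.06, adjusted p = 1.7e-07, edgeR). Slc38a3 had 1104 and 1988 in the Hk2-deleted section, 967 and 1557 in fibrotic section 1, 1089 and 1887 in fibrotic section 2, and 1954 and 2262 in the healthy section (-0.76 ± 0.06, adjusted p = 4.4e-07, edgeR). These carriers were lower in the collagen-rich spots of each CCl4 section, and their log2 ratios in the healthy section were 0.00, -0.25 and -0.21. Slc7a2 had 129 and 258 in the Hk2-deleted section, 132 and 191 in fibrotic section 1, 148 and 296 in fibrotic section 2, and 285 and 314 in the healthy section (-0.82 ± 0.08, adjusted p = 2.2e-06, edgeR). The neighbouring genes Slc6a12 and Slc6a13 (chr6:121342574-121365773 and chr6:121300288-121337721) were lower by fits of -0.79 ± 0.08 and -0.62 ± 0.07. Slc43a1 gave -0.49 ± 0.10. Slc38a2 gave -0.29 ± 0.07, and 0.029 when libraries were scaled by their totals alone.

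Collagen-rich spots were mostly pericentral, at 70.7% of them in the Hk2-deleted section, 71.9% and 80.2% in fibrotic sections 1 and 2, and 40.8% in the healthy section. The comparison was therefore repeated within zones. Inside the pericentral part, 11 of the 18 calls were made again, with Slc6a7, Slc1a5, Slc6a8, Slc43a3 and Slc3a2 higher and Slc38a3, Slc38a4, Slc7a2, Slc6a13, Slc3a1 and Slc6a12 lower. Slc1a4, the most pericentral member by the fitted difference, gave -0.019 there and -0.32 inside the periportal part. The periportal value rests on 29 collagen-rich spots in the Hk2-deleted section, and 16 and 10 in fibrotic sections 1 and 2. Over all genes these spots held 397527, 229338 and 156310 UMIs. Scaling by library totals gave 21 higher and 6 lower calls, with the median of all genes shifted to 0.33. Hepatocyte markers summed to 82039 normalised CPM in collagen-rich and 129308 in other spots of the Hk2-deleted section, 119235 and 178938 in fibrotic section 1, 118516 and 181965 in fibrotic section 2, and 230387 and 262479 in the healthy section. All 6 were called lower, while all 6 stellate, all 6 neutrophil and all 7 lymphocyte and plasma cell markers were called higher. So were 6 of 9 macrophage, 4 of 5 cholangiocyte and 3 of 3 mesothelial markers, and 4 of 6 endothelial markers were called lower. The share of these cells in the transporter differences was not tested.

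**Figure D4:**
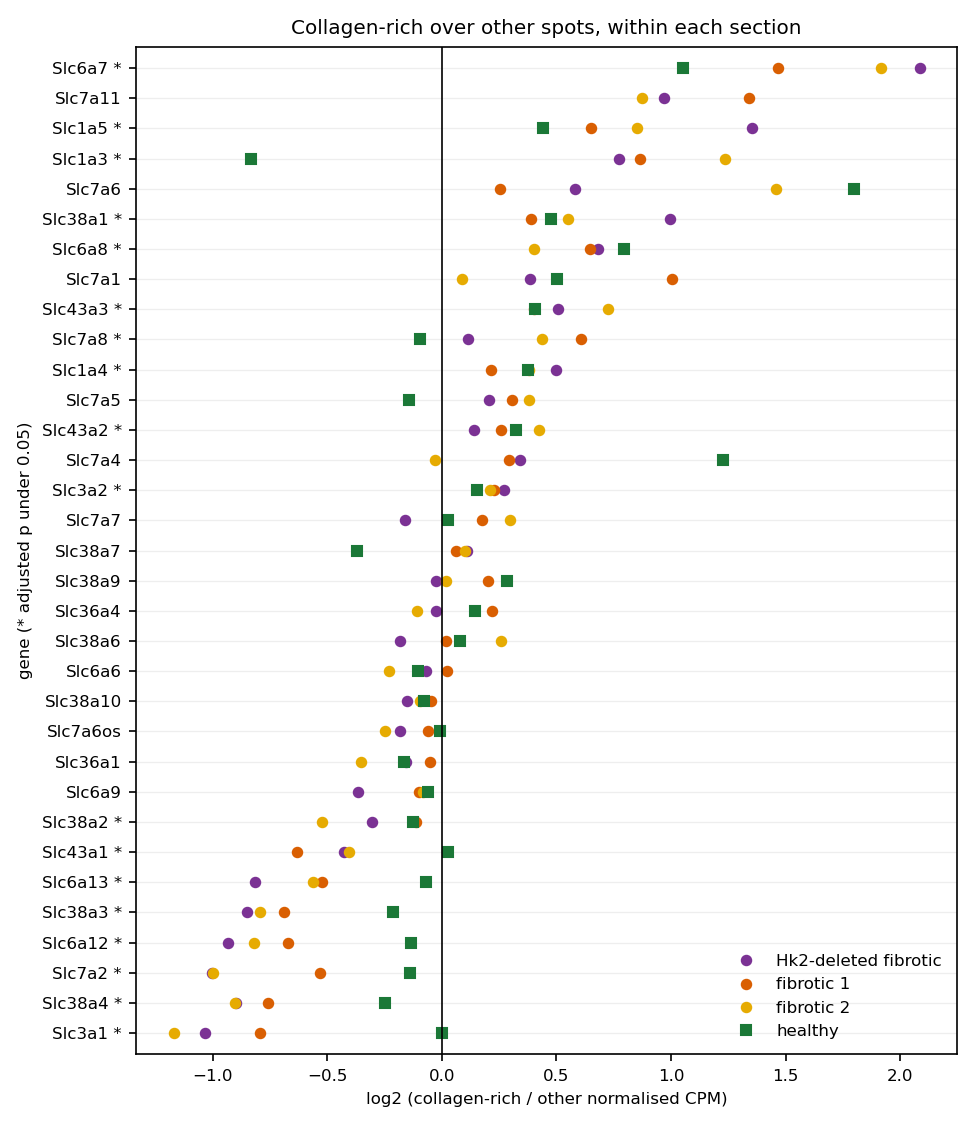
Within-section log2 ratio of collagen-rich over other spots (x axis) for the 33 members tested (rows), with circles for the CCl4 sections, squares for the healthy section and stars for calls over the CCl4 sections. Slc6a7 lies between 1.47 and 2.08 in the CCl4 sections, and Slc3a1 between -1.17 and -0.79 with its healthy square at 0.00.

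With Hk2 deleted, the difference between collagen-rich and other spots was larger for 1 of the 33 members, Slc1a5, in a test that called 0.820% of 13170 genes (0.744% higher and 0.0759% lower). Its within-section log2 ratio was 1.35 in the Hk2-deleted section, 0.65 and 0.85 in fibrotic sections 1 and 2, and 0.44 in the healthy section. The Hk2-deleted value lay above both fibrotic values, by 0.65 ± 0.16 (adjusted p = 0.037, edgeR). Against fibrotic section 2 alone the ratio was larger by 0.50, with no test. The call was lost with DESeq2, with another scaling (adjusted p = 0.11, edgeR), with the top 20% of spots and without spots near the surface (adjusted p = 0.63, edgeR). Of the collagen-rich spots, 66.1% were surface spots by their mesothelial UMIs in the Hk2-deleted section, 49.2% and 2.33% in fibrotic sections 1 and 2, and 12.4% in the healthy section. The same test called 4 of 6 neutrophil markers as larger with Hk2 deleted and no marker of the other lists. The part of the surface spots and of these markers in this difference was not tested further.

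Neighbours in the genome did not always share a pattern. Slc43a1 (chr2:84838855-84863586) was periportal and Slc43a3 (chr2:84936545-84958509), on the same chromosome, was pericentral. On chromosome 15, Slc38a1 (chr15:96571418-96643438) was higher in collagen-rich spots, while Slc38a2 and Slc38a4 (chr15:96994816-97055956) were lower there. The Moran's I in the authors' deposited table, a measure of how strongly neighbouring spots resemble each other, was 0.209 for Slc38a3 in the Hk2-deleted section, 0.129 and 0.183 in fibrotic sections 1 and 2, and 0.110 in the healthy section. For Slc38a4 the authors' deposited table gives 0.132 in the Hk2-deleted section, 0.126 and 0.160 in fibrotic sections 1 and 2, and 0.010 in the healthy section.

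Among genes outside the families, Slc16a10, an aromatic amino acid carrier, and the lysosomal cysteine carrier Mfsd12 were higher in the pericentral part (0.75 ± 0.09 and 0.47 ± 0.09), and the mitochondrial ornithine carrier Slc25a15 was lower (-0.46 ± 0.11, adjusted p = 0.035, edgeR). Those were 3 of 15 tested, 13.3% higher and 6.67% lower, beside 5.60% and 5.05% of all genes. In collagen-rich spots, 2 of the 15 were higher (13.3%) and 7 lower (46.7%), beside 21.9% and 22.1% of all genes, among them Slc25a15 at -0.64 ± 0.05 and the aspartate and glutamate carrier Slc25a13 at -0.43 ± 0.06. Of the 22 sensing and response genes, Nupr1 was higher and Chac1 lower in the pericentral part, 4.55% each way and thus close to the shares of all genes. In collagen-rich spots, 5 were higher, led by Nupr1 at 1.29 ± 0.11 and the asparagine synthetase gene Asns at 1.11 ± 0.28, and Atf4, Atf5 and Sar1b were lower. These shares, 22.7% and 13.6%, were near and below those of all genes. The zone difference shifted with CCl4 for 6 of the 15 carriers, 1 toward the pericentral part (Slc15a3) and 5 away from it, and for 2 of the 22 sensing genes, Atf5 and Sar1b, both away from it. The shares were 6.67% toward and 33.3% away for the carriers, and 0 and 9.09% for the sensing genes, beside 9.31% and 11.2% of all genes. Neither list had a call for Hk2 deletion, over whole sections or between kinds of spot.

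The remaining 21 members had no call in the 6 comparisons with all sections and TMM scaling. Other settings called 14 of them in at least 1 comparison, among them Slc6a6, Slc38a6, Slc38a10 and Slc38a7 in collagen-rich spots with scaling by library totals. The taurine carrier Slc6a6 had 118 normalised CPM in the Hk2-deleted section, 111 and 127 in fibrotic sections 1 and 2, and 106 in the healthy section. Slc38a6 had 56.0 in the Hk2-deleted section, 57.2 and 53.3 in fibrotic sections 1 and 2, and 50.4 in the healthy section. These levels stayed within narrow ranges. The glycine carrier Slc6a9 had 47.0 in the Hk2-deleted section, 36.9 and 50.1 in fibrotic sections 1 and 2, and 47.2 in the healthy section, and Slc38a10 had 52.9, 43.3, 49.5 and 41.4 in the same order of sections. The proton-coupled carrier Slc36a1 and its relative Slc36a4 had log2 differences between fibrotic and healthy liver of 0.27 ± 0.19 and 0.07 ± 0.19. Those of the lysosomal carriers Slc38a7 and Slc38a9, the last a sensor of arginine for mTORC1, were -0.38 ± 0.18 and 0.23 ± 0.22. Slc7a6os, the neighbour of Slc7a6, had 20.6 normalised CPM in the Hk2-deleted section, 18.4 and 18.2 in fibrotic sections 1 and 2, and 22.8 in the healthy section. Slc7a4, Slc7a1 and 10 further members had 21 to 402 UMIs in all, so their levels carried wide counting errors. Among these, the proton-coupled carrier Slc36a2, had 22 UMIs in the Hk2-deleted section, 28 and 2 in fibrotic sections 1 and 2, and 1 in the healthy section.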

How the data were processed

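The deposited files hold UMI counts per gene and spot that the authors made with Space Ranger 2.0.0, per the file headers, with mm10 named in the submitters' processing notes. No source used here names the probe set. A score per gene, Moran's I, stands in the authors' deposited tables, whose UMI totals equalled those of the count files for all genes. UMI counts were summed per section, per zone part or per kind of spot, since spots are not replicates. Genes were tested with edgeR 4.0.16 (R 4.3.3; filterByExpr, TMM scaling, glmQLFit and glmQLFTest), with section as a block within sections, and with DESeq2 1.42.0 as an alternative. The fits were also run on simulated counts with the same spread for all genes. That cannot show how they fare with the differences between these sections. An SE is the log2 difference divided by the square root of F. Groups with a lone section (healthy, Hk2-deleted) took their spread from the 2 fibrotic sections, except for the zone difference with CCl4, where it came from the 3 CCl4 sections. Normalised CPM are UMI counts scaled by TMM over all sums of a kind. Intervals (95%, exact Poisson) cover counting error only. The zone score of a spot is the mean z of log2(CPM + 1) over pericentral landmarks minus that over periportal ones. The members and lists were chosen with earlier results of these data known. All members may be named, and other genes were named when called, up to 6 per comparison. Of the listed genes, Hba-a1 and Ccnb1 were not used here, and Slc66a1 is named Pqlc2 in the files. Other settings tried were scaling, the filter on low counts, the zone and collagen limits, surface spots and leaving out sections.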

Additional observations from a re-analysis of the deposited data

Results flagged for a closer look

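For 12 members the pericentral over periportal difference itself differed between the CCl4 sections and the healthy section by the edgeR test of that term. On the log2 scale, the difference of CCl4 minus healthy was 2.28 for Slc6a7, 1.18 for Slc6a8, 1.16 for Slc7a8, 0.97 for Slc3a1, 0.73 for Slc1a5 and 0.60 for Slc43a2. It was -0.74 for Slc6a12, -0.66 for Slc38a4, -0.64 for Slc7a2, -0.47 for Slc43a1, -0.34 for Slc38a3 and -0.28 for Slc6a13. The calls of Slc43a1, Slc38a3 and Slc6a13 were lost under 4, 2 and 5 of the other settings tried. Slc6a7 had 3 UMIs in the pericentral part of the healthy section. Some of the landmarks that define the parts were called in the same test. For Slc1a5 the collagen-rich over other difference was larger by 0.65 in the Hk2-deleted section than in the fibrotic sections.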

How the results depend on the processing

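Calls between fibrotic and healthy liver numbered 8, with 5 by DESeq2 and 5 with fibrotic section 2 and the Hk2-deleted section as the CCl4 group. Leaving out a fibrotic section left no residual degree of freedom there, so single genes have values only. For Hk2 deletion, 0 calls became 1, Slc3a1, when libraries were scaled by their totals alone. That scaling shifted the median of all genes to 0.34 between fibrotic and healthy liver and to 0.15 for the zone difference with CCl4, where it gave 6 calls toward and 3 away from the pericentral part. Between zones it gave 17 calls in place of 11, and leaving out a section gave 4 to 16. For the zone difference with CCl4, DESeq2 gave 5 calls in place of 12. For collagen-rich spots, 18 calls became 11 within the pericentral part and 7 within the periportal part. The periportal part held 29 such spots in the Hk2-deleted section, and 16 and 10 in fibrotic sections 1 and 2, so values there rest on few UMIs. Within the zone parts Slc1a4 turned to -0.019 (pericentral) and -0.32 (periportal), Slc3a2 to -0.23 and Slc43a1 to 0.11 (both periportal). Slc38a2 turned to 0.029 with library totals. The cause was not tested. For collagen-rich spots with Hk2 deleted, the 1 call became 0 by DESeq2, with RLE scaling, with the top 20% of spots and within the periportal part, where Slc1a5 was at -0.040. Without surface spots the 1 call was Slc6a7 in place of Slc1a5. No section could be left out of that test. The fibrotic, healthy and Hk2-deleted sections were not paired with each other. Zone parts and kinds of spot were paired within sections, with section as a block. The 10 members with 62 UMIs or fewer were too low to test between zones.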
